A study of Mus musculus with 24 samples.

Results

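The change described is that of LPS-stimulated control macrophages between 2 h and 4 h: the 3 control arrays taken 4 h after lipopolysaccharide (LPS) were set against the 3 control arrays taken at 2 h, and arrays were paired by their replicate number. These are 6 of the 24 arrays of the study. All arrays held RNA of macrophages from the bone marrow of female C57BL/6 mice aged 6 weeks, and the study sampled control cells and cells given a BET bromodomain inhibitor at 0, 1, 2 and 4 h of LPS, with 3 replicates in each of the 8 groups. The labels name neither the compound nor a dose, nor the number of mice behind each replicate. The design text calls the replicates biological, and p-values measure only the spread between these samples.

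Macrophages sense LPS through Tlr4 and answer in waves. Genes of the first wave, such as Tnf, Egr1 and Nfkbia, need no new protein, and many of their mRNAs are short-lived because AU-rich elements and RNA-binding proteins of the Zfp36 family mark them for decay. One first-wave product, interferon beta (Ifnb1), is secreted and acts back on the cells through its receptor, Jak kinases and Stat factors, which switch on antiviral genes, guanylate-binding proteins and further regulators such as Irf7 and Irf8.

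Levels are log2 intensities, so a difference of 1 is a 2-fold change. A change is the difference of the 4 h and 2 h group means ± its standard error (SE), from 3 arrays against 3, in a limma fit over all 24 arrays with the replicate number as a block. A gene was called when limma's p, adjusted by Benjamini-Hochberg over 8201 genes, lay under 0.05. Levels under a floor of 6.455 were not told apart from probes for olfactory and vomeronasal receptors. Arrays compare amounts within a fixed quantity of RNA, so fewer cells of a type and less RNA per cell cannot be told apart.

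The promoters of 5 genes that the results below turn on are shown first, because they hold motifs that interferon factors and NF-kB bind. Ifit3 and Igtp were not called at 1 h against 0 h. Their control means were already higher at 2 h than at 1 h, and both rose further by 4 h. These means were 7.825 at 1 h and 10.886 at 2 h for Ifit3, and 7.799 and 9.535 for Igtp. Cxcl10 rose at 1 h and went on rising. Ifnb1 and Nfkbia rose at 1 h and were lower at 4 h than at 2 h. The 250 bases before each start site are from RefSeq on build GRCm38.p6, read 5′ to 3′ along the gene, and lie at chr19:34583279-34583528 (plus strand) for Ifit3, chr11:58199306-58199555 (plus strand) for Igtp, chr5:92348890-92349139 (minus strand) for Cxcl10, chr4:88522795-88523044 (minus strand) for Ifnb1 and chr12:55492648-55492897 (minus strand) for Nfkbia. Capitals mark the interferon-stimulated response element (ISRE), searched as GAAA, any 2 bases and GAAA, and the kB site that NF-kB binds, searched as GGGA, any 4 bases and CC, on either strand. The genes were chosen after their values were seen.
Ifit3: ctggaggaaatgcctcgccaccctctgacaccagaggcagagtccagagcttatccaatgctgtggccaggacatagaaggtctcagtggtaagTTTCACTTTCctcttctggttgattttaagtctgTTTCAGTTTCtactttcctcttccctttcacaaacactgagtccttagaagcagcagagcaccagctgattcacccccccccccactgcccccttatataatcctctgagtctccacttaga
Igtp: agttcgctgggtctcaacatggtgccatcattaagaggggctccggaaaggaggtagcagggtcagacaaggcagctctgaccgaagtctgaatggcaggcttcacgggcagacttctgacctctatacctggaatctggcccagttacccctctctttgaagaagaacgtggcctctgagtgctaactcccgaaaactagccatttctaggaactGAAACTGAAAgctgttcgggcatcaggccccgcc
Cxcl10: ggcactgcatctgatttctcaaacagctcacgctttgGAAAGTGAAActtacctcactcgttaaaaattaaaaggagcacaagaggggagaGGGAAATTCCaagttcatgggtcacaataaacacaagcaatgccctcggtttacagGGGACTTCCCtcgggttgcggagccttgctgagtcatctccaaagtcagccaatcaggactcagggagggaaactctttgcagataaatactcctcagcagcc
Ifnb1: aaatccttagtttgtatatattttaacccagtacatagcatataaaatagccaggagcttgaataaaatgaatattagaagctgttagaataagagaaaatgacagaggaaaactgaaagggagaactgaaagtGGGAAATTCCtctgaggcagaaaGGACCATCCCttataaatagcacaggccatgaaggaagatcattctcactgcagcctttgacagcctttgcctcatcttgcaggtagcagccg
Nfkbia: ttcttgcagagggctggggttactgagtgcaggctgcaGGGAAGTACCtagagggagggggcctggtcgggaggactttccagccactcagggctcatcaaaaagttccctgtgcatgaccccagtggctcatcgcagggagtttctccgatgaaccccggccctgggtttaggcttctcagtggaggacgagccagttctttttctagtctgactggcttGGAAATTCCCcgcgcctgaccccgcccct
Ifit3 held ISRE matches 156 and 122 bases before its start and Igtp held 1 match 34 bases before. Cxcl10 held an ISRE match 213 bases before its start and kB matches 159 and 103 bases before. Ifnb1 held kB matches 116 and 93 bases before its start, and Nfkbia 212 and 29 bases before. A match is a run of letters and not a measured binding site.

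Between 2 h and 4 h, 42.8% of all tested genes were called: 1514 were higher (18.5%) and 1994 lower (24.3%). Changes of at least 2-fold were fewer, with 301 genes higher (3.67%) and 158 lower (1.93%). The 3 arrays of 4 h lay above the 3 of 2 h in 1439 genes (17.5%) and below them in 1851 (22.6%). The median change over all genes was -0.055, and it was 0.083 when each array was centred on housekeeping genes. With that centring the share of rises among all calls went from 43.2% to 68.1%, and it was 55.5% after cyclic loess, so counts of small falls depend on the scaling. No call changed sign under housekeeping centring.

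**Figure D1:**
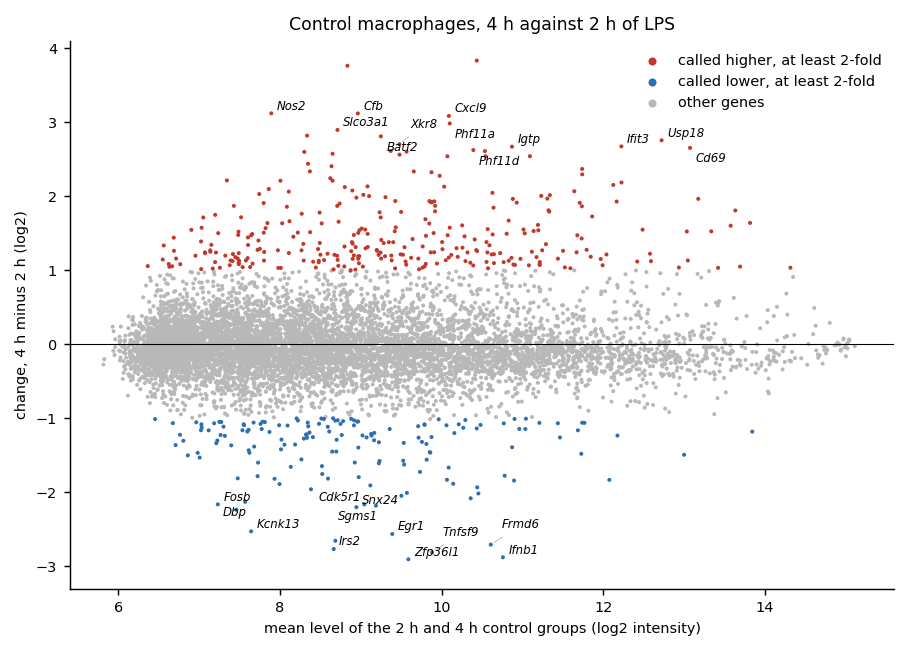
Change from 2 h to 4 h (log2) against the mean level of both control groups (log2 intensity), with 1 point per gene. Red points are the 301 genes called higher by at least 2-fold, blue points the 158 called lower by at least 2-fold, and names mark the 12 largest rises and falls with a symbol; 2 points above Nos2 are probes without one.

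The control 2 h array of replicate 1 stood apart from the other two in the direction of the 4 h arrays. Among the 301 genes that rose at least 2-fold it had the highest level of the 2 h group in 270, and among the 158 that fell at least 2-fold it had the lowest level in 120. The replicate 1 array of the inhibitor-treated 2 h group was likewise the highest of its group in 211 of these 301 genes and the lowest in 109 of the 158. Without the control 2 h replicate 1 array, 358 genes rose and 204 fell by at least 2-fold, 299 of the 301 and all 158 were still called, and the median rise of the 301 went from 1.352 to 1.499. Replicate 1 differed at other times too. It was the highest control 4 h array in 209 of the 301 genes and the lowest in 88 of the 158. At 1 h these counts in control cells were 174 and 47. In every group its root mean square deviation from the group mean was the largest, at 0.199 to 0.246 against 0.116 to 0.185. What set this replicate apart was not tested.

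The cells carried macrophage transcripts at both times. All 6 macrophage markers analysed (Adgre1, Itgam, Cd14, Lyz2, Fcgr1 and Mertk) lay above the floor on all 6 arrays, with a summed level of 15.75 to 15.86 at 2 h and 15.77 to 15.92 at 4 h. None of the T cell, B cell, endothelial and erythroid markers measured did so in either group. Single genes of the NK cell (Prf1), dendritic cell (Itgax) and stroma (Dcn) lists did so at both times, and none of the 3 was called. The summed levels of these lists ran at 2 h from 8.46 to 8.65, 9.23 to 9.46 and 9.87 to 10.15, and at 4 h from 8.46 to 8.69, 9.15 to 9.39 and 9.88 to 10.15. The neutrophil sum ran from 10.3 to 10.66 at 2 h and from 10.6 to 10.96 at 4 h, carried by S100a8, which was not called. Of the 4 mast cell and basophil genes, Cpa3 and Fcer1a lay above the floor on all 6 arrays. The sum of this list ran from 11.2 to 11.42 at 2 h and from 11.39 to 11.74 at 4 h, the highest after that of macrophages. Cpa3 rose by 0.27 ± 0.11 (adjusted p = 0.045, and 0.256 without the replicate block), and Fcer1a was not called. The part of these genes in other results was not tested.

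The 12 largest rises among genes with a symbol ran from 2.62 for Phf11d to 3.12 for Nos2. Nos2, the inducible nitric oxide synthase, read 6.54, 6.24 and 6.23 on the 2 h arrays of replicates 1 to 3 and 9.85, 8.89 and 9.62 on the 4 h arrays. It was under the floor on 2 of the 3 arrays at 2 h and differed by 3.12 ± 0.19 (adjusted p = 2.97e-10), with no overlap between the groups. Its 2 h mean lay under the floor, so the size of this rise is set against background. Cfb, complement factor B of the alternative pathway, went from 8.31, 6.83 and 7.07 to 10.75, 10.29 and 10.52, a rise of 3.12 ± 0.18 (adjusted p = 1.65e-10). Its 2 h and 4 h arrays lay far apart in all 3 pairs.

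Cxcl9, a chemokine for activated T cells that is classically induced by interferon gamma, read 10.61, 7.33 and 7.70 at 2 h and 12.02, 11.47 and 11.40 at 4 h. It rose by 3.08 ± 0.44 (8.48-fold, adjusted p = 1.22e-05), and by 3.97 without the replicate 1 array of 2 h, whose level was far above the other 2 h arrays. Cd69, an early surface activation antigen of leukocytes, went from 12.78, 11.23 and 11.23 to 14.57, 14.34 and 14.29, a rise of 2.65 ± 0.31 (adjusted p = 9.31e-07). Its 4 h levels were above 14, where bright probes can be compressed. Slco3a1, a solute carrier for organic anions, read 8.296, 6.65 and 6.85 at 2 h and 10.57, 9.66 and 10.25 at 4 h and rose by 2.90 ± 0.24 (adjusted p = 1.41e-08). Xkr8, a phospholipid scramblase of the plasma membrane, went from 9.14, 7.41 and 7.83 to 11.30, 10.63 and 10.56 and rose by 2.70 ± 0.24 (adjusted p = 3.1e-08). In all of these genes the groups did not overlap, and replicate 1 was the highest array at 2 h.

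Of the 301 genes that rose at least 2-fold, 271 were not called at 1 h against 0 h, as were 7683 of all 8201 genes. At that time 21 of the 301 were called higher and 9 lower, where 6.32% of all genes were called either way. A rise at 1 h of at least 2-fold was called in 13 of the 301 and in 1.65% of all genes. On every array of 0 h and 1 h, 30 of the 301 lay under the floor. The control mean was highest at 4 h in 299 of the 301, and the arrays of 2 h and 4 h did not overlap in 295. Over all genes the 3 arrays of 4 h lay above those of 2 h in 17.5%. The 301 were chosen on these same arrays, so both counts largely follow from the choice. The largest rise reached 3.83 and belonged, like the next, to a probe without a gene symbol, and 23 of the 301 had no symbol.

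**Figure D2:**
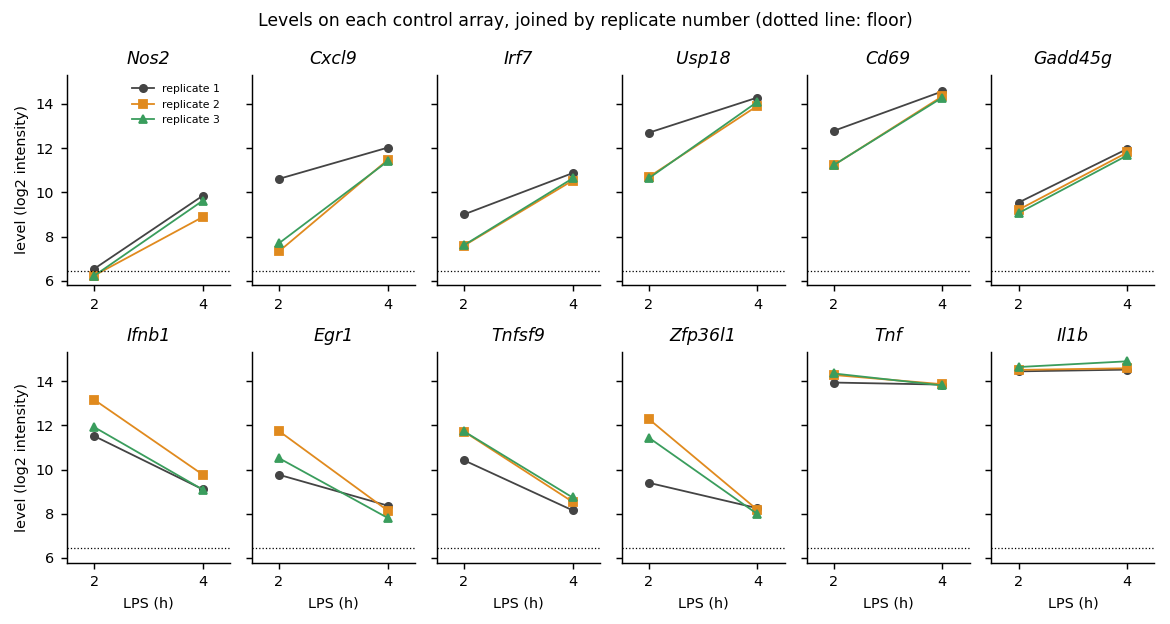
Level (log2 intensity) on each control array at 2 h and 4 h of LPS for 12 genes, with lines joining arrays of the same replicate number and a dotted line at the floor of 6.455. Nos2, Cxcl9, Irf7, Usp18, Cd69 and Gadd45g rose in every pair, Ifnb1, Egr1, Tnfsf9 and Zfp36l1 fell in every pair, and Tnf and Il1b moved little; replicate 1 at 2 h lies nearest to the 4 h levels for Cxcl9, Irf7, Usp18 and Zfp36l1.

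Interferon-stimulated antiviral genes rose together. Of the 42 tested members, 38 were called higher (90.5%, against 18.5% of all genes), 31 of them by at least 2-fold. Mx2, Rsad2, Trim25 and Slfn2 were not called. The median change of the list was 1.52. Usp18, which removes Isg15 from proteins and dampens the interferon receptor, read 12.70, 10.70 and 10.64 at 2 h and 14.29, 13.91 and 14.10 at 4 h. It rose by 2.76 ± 0.44 (6.75-fold, adjusted p = 4.76e-05), and its replicate 1 array at 2 h was far above the others. Ifit3, part of an antiviral RNA-binding complex, whose promoter is printed above, went from 12.07, 10.64 and 9.95 to 14.04, 13.26 and 13.38, a rise of 2.67 ± 0.35 (adjusted p = 4.02e-06). Phf11d and Phf11a, PHD finger genes, rose by 2.62 ± 0.23 (adjusted p = 1.95e-08) and 2.98 ± 0.21 (adjusted p = 2.15e-09).

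Mx1, a gene of the dynamin-like GTPase family, read 10.61, 7.62 and 7.91 at 2 h and 11.72, 10.84 and 10.55 at 4 h. The replicate 1 array of 2 h overlapped the 4 h range, and the rise of 2.32 ± 0.42 (adjusted p = 0.00018) was 2.97 without it. Cmpk2, a mitochondrial nucleotide kinase next to Rsad2, went from 13.25, 11.63 and 11.70 to 14.26, 14.001 and 14.20 and rose by 1.96 ± 0.42 (adjusted p = 0.000838). Mx2 was already at 12.06, 11.04 and 11.17 at 2 h and read 12.10, 12.15 and 12.30 at 4 h. Its difference of 0.76 ± 0.51 did not pass the test (adjusted p = 0.24), although its arrays did not overlap, and it passed in a fit of the 6 arrays alone (adjusted p = 0.0252). Without the replicate block 34 of the 42 antiviral genes were called higher.

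All 11 tested interferon-induced GTPases were called higher, each by at least 2-fold, with a median of 1.52. Some proteins of this family attack the vacuoles in which intracellular microbes live. Igtp (Irgm3) read 10.60, 8.89 and 9.12 at 2 h and 12.42, 12.14 and 12.05 at 4 h, a rise of 2.67 ± 0.23 (adjusted p = 2.01e-08). Ifi47 went from 11.63, 10.05 and 10.10 to 13.12, 12.78 and 12.76 and rose by 2.30 ± 0.24 (adjusted p = 2.63e-07). Tgtp1 was under the floor on 2 of the 3 arrays at 2 h, with 6.68, 6.09 and 5.94, and read 8.81, 8.23 and 8.31 at 4 h, a difference of 2.21 ± 0.13 (adjusted p = 1.65e-10) against a 2 h mean under the floor. The groups did not overlap in any of these 3.

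The ISRE shares are given as a description, with 219 of the 301 rising and 109 of the 158 falling genes matched in the RefSeq promoter table. In windows from 250 bases before to 50 after the start, the ISRE on either strand was in 3.44% of 32851 promoter windows of the table and in 3.47% of 8071 windows of tested genes, chromosome 18 left out. It was in 14.7% of the 293 windows of genes that rose at least 2-fold and in 1.79% of the 168 windows of genes that fell at least 2-fold. It was in 9 of 11 windows of the GTPases (81.8%) and in 14 of 40 windows of the antiviral list (35%). The kB motif was in 25.8% of windows of tested genes, 28.3% of those of rising and 28% of those of falling genes.

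Regulators of interferon signalling rose as well. Of 18 tested members 13 were called higher (72.2%) and 2 lower (11.1%), against 18.5% and 24.3% of all genes, with a median of 0.69. Irf7, the factor that amplifies interferon alpha production, read 9.0, 7.59 and 7.61 at 2 h and 10.87, 10.53 and 10.63 at 4 h, a rise of 2.61 ± 0.20 (6.11-fold, adjusted p = 5.43e-09). Batf2, a partner of Irf1 in macrophages, went from 9.09, 7.18 and 7.26 to 10.84, 10.40 and 10.71 and rose by 2.81 ± 0.26 (adjusted p = 6.63e-08). Irf8, a lineage factor of macrophages, read 9.80, 8.48 and 8.13 at 2 h and 11.22, 11.40 and 11.40 at 4 h and rose by 2.54 ± 0.26 (adjusted p = 2.3e-07); its mean had been 9.83 before LPS. Batf2, Irf7 and Irf8 were all highest in replicate 1 at 2 h, and their groups did not overlap.

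Ifngr1, the ligand-binding chain of the interferon gamma receptor, moved the other way, from 9.71, 9.94 and 9.67 to 8.64, 9.02 and 8.94, and fell by 0.90 ± 0.11 (adjusted p = 1.68e-06). Batf3, a factor known from cross-presenting dendritic cells, fell by 0.52 ± 0.15 (adjusted p = 0.0106), and the call was lost with housekeeping centring (0.0929) and without the control 2 h array of replicate 1 (0.0536). Irf1 was near the top of the scale at both times, with 14.46, 13.40 and 13.77 at 2 h and 14.21, 14.01 and 14.30 at 4 h, and its overlapping groups did not pass the test (0.30 ± 0.24, adjusted p = 0.344).

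Of 19 tested Jak, Stat and Socs genes 7 were called higher (36.8%) and 2 lower (10.5%), against 18.5% and 24.3% of all genes (median 0.20). Stat2, the interferon-specific Stat, read 9.43, 7.72 and 8.02 at 2 h and 10.29, 10.01 and 10.01 at 4 h and rose by 1.71 ± 0.23 (adjusted p = 6.05e-06). Socs1, which inhibits Jak kinases, went from 8.01, 7.36 and 7.53 to 9.12, 8.90 and 8.68, a rise of 1.27 ± 0.15 (adjusted p = 1.55e-06). Socs2, an inhibitor of growth hormone signalling, fell by 1.20 ± 0.12 (adjusted p = 1.95e-07), and Socs5 fell by 0.48 ± 0.14 (adjusted p = 0.0096), a call lost with housekeeping centring (0.0811). Socs3, which acts on the Il6 receptor, had been induced at 1 h and read 14.06, 13.47 and 13.86 and then 13.63, 13.34 and 13.50, a difference of -0.31 ± 0.37 that did not pass the test (adjusted p = 0.53; 0.0397 in a fit of the 6 arrays alone).

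Secondary response genes are those whose induction by LPS follows that of the first wave. Of 27 tested members 22 were called higher (81.5%, against 18.5% of all genes), 16 of them by at least 2-fold. The list median was 1.13. At 1 h 7 of the 27 were already called higher by at least 2-fold, against 1.65% of all genes. Ccl5, Mmp13, Clec4e, Hp and Ch25h were not called. The list was taken from general knowledge of the LPS response, and Nos2, Cfb and Cxcl9 head it. Like the other lists it was chosen with earlier results of these data known, so its share called is a description. Il12a, the p35 subunit of interleukin 12, went from 7.30, 6.48 and 6.93 to 9.29, 8.70 and 9.34 and rose by 2.21 ± 0.16 (4.62-fold, adjusted p = 2.79e-09). Il15, a cytokine that sustains NK and memory T cells, read 11.88, 10.75 and 10.51 at 2 h and 13.07, 13.12 and 13.41 at 4 h, a rise of 2.15 ± 0.29 (adjusted p = 5.95e-06). Both genes were fully separated between the times.

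Genes of class I antigen processing rose. Of 19 tested members 15 were called higher (78.9%, against 18.5% of all genes), 11 of them also without the replicate block. The list median was 0.45. Nlrc5, the transactivator of class I genes, read 8.99, 8.002 and 7.80 at 2 h and 11.01, 10.68 and 10.92 at 4 h and rose by 2.60 ± 0.14 (adjusted p = 1.12e-10). Tap1, a subunit of the peptide transporter, went from 8.39, 7.40 and 7.43 to 9.88, 10.07 and 9.64, a rise of 2.12 ± 0.17 (adjusted p = 8.34e-09). B2m, H2-D1, Pdia3 and Calr were not called. Of 10 tested class II genes 2 were called lower (20%, near the 24.3% of all genes). The other 8, among them H2-Aa, H2-Ab1, Cd74 and Ciita, were not called (median -0.04). H2-DMb2 was under the floor on all 3 arrays at 4 h, at least 1.22-fold lower than at 2 h (adjusted p = 0.00217), and Ctsh fell by 0.24 ± 0.09 (adjusted p = 0.0311; 0.146 without the block); both calls were lost with housekeeping centring (0.0512 and 0.454), under which H2-Ab1 was the 1 member called, and called higher.

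Sensors of microbes rose more often than they fell. Of 20 tested Toll-like receptor and adaptor genes 11 were called higher (55%) and 1 lower (5%), against 18.5% and 24.3% of all genes. The list median was 0.35. Tlr3, the receptor for double-stranded RNA, was under the floor on 2 of 3 arrays at 2 h, with 6.95, 6.27 and 6.26, and read 8.75, 8.07 and 8.27 at 4 h, a rise of 1.87 ± 0.14 (adjusted p = 2.94e-09). Ticam2, the adaptor that links Tlr4 to interferon induction, rose by 1.20 ± 0.14 (adjusted p = 7.08e-07). Tlr13, a sensor of bacterial ribosomal RNA, fell by 0.85 ± 0.15 (adjusted p = 0.000117), and Tlr2 and Tlr4 were not called. Of 13 tested inflammasome and caspase genes 8 were called higher (61.5%) and 1 lower (7.69%), against the same shares of all genes (median 0.79). Nod1, a sensor of peptidoglycan, went from 10.38, 8.62 and 8.69 to 12.06, 11.71 and 11.75 and rose by 2.61 ± 0.27 (adjusted p = 2.71e-07). Il18, a cytokine matured by caspase 1, went from 8.85, 8.47 and 8.61 to 10.37, 9.97 and 10.34 and rose by 1.58 ± 0.10 (adjusted p = 6.12e-10). Pycard, the adaptor ASC, fell by 0.61 ± 0.13 (adjusted p = 0.000727).

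The early transcripts were described next. Early genes were those called higher at 1 h than at 0 h in control cells with a log2 rise of at least 1. The means of 0 h and 1 h rest on other arrays than those of 2 h and 4 h. Both tests, however, shared 1 estimate of the spread per gene from the fit over all 24 arrays. The shares called from 2 h to 4 h are therefore not independent of this choice. The definition was met by 135 genes (1.65%). From 2 h to 4 h, 44 of them were called lower (32.6%, against 24.3% of all genes), 19 higher (14.1%, against 18.5%) and 72 neither, with a median change of -0.225. Falls of at least 2-fold made up 23.7% of early genes (32) and 1.48% of the 7683 genes not called at 1 h. Rises of at least 2-fold made up 9.63% of early genes (13) and 3.53% of the genes not called at 1 h. Of the 62 genes raised by at least 2 log2 units at 1 h, 24 were called lower (38.7%) and 8 higher (12.9%). Without all arrays of replicate 3, 28 of these 135 genes were called lower and 11 higher, and 20 and 7 when the early genes were also chosen anew without them.

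The early genes peaked at different times. The control mean was highest at 1 h in 42, at 2 h in 48 and at 4 h in 45 of the 135. Of the 44 that fell after 2 h, 21 had peaked at 1 h and 23 at 2 h. At 4 h 9 of the 44 were at or under their level before LPS and 35 were still above it. If each fall ran at a constant rate, the level halved in a median of 1.32 h over the 42 genes not under the floor on all 3 arrays at 4 h, a net change that joins decay and continued synthesis.

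**Figure D3:**
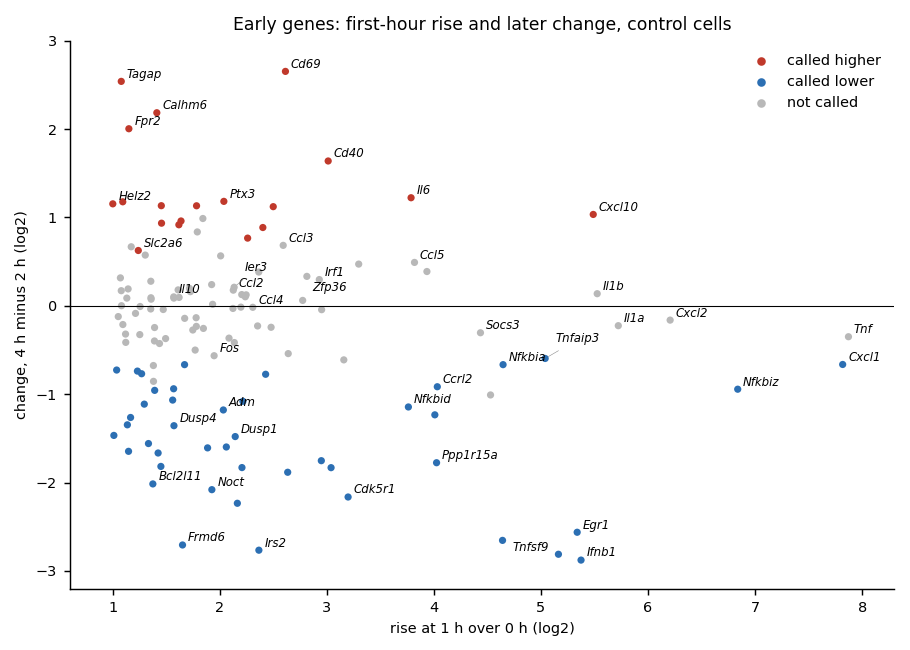
Change from 2 h to 4 h (log2) against the rise at 1 h over 0 h (log2) for the 135 early genes in control cells. Blue points are the 44 called lower, red points the 19 called higher and grey points the 72 not called; Tnf, Cxcl1 and Nfkbiz rose most at 1 h and lie close to or moderately under 0, and Ifnb1, Tnfsf9 and Egr1 lie lowest among those raised more than 5.

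Ifnb1, interferon beta itself, had the deepest fall of any early gene. It averaged 5.88 before LPS, under the floor, and 11.25 at 1 h. It read 11.52, 13.16 and 11.92 at 2 h and 9.10, 9.77 and 9.09 at 4 h, and fell by 2.88 ± 0.62 (adjusted p = 0.000881), which corresponds to a halving in 0.695 h. Its groups did not overlap, and the 4 h level was still above the floor. Tnfsf9, the ligand of the costimulatory receptor 4-1BB, read 10.42, 11.72 and 11.73 at 2 h and 8.16, 8.54 and 8.74 at 4 h and fell by 2.81 ± 0.39 (adjusted p = 8.76e-06). Replicate 1 was the lowest 2 h array in both genes.

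Transcription factors of the immediate early class came next. Of 18 tested members 7 were called lower (38.9%, against 24.3% of all genes), 3 higher (16.7%, against 18.5%) and 8 neither. The list median was -0.21. By the definition above 7 of the 18 were early genes, against 1.65% of all genes. Fosb, Mafk and Atf3 were not called at 1 h against 0 h. Egr1, a zinc finger factor of the serum response, averaged 14.33 at 1 h, then read 9.76, 11.74 and 10.51 at 2 h and 8.37, 8.14 and 7.81 at 4 h. It fell by 2.56 ± 0.34 (adjusted p = 6.23e-06) to under its level before LPS, which was 8.99. Fosb, an AP-1 subunit, went from 8.25, 7.99 and 8.70 to 5.94, 6.15 and 6.37, under the floor on all 3 arrays, and was at least 3.63-fold lower (adjusted p = 0.000118).

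Fos had averaged 12.47 at 1 h and read 8.28, 9.78 and 8.92 at 2 h and 8.09, 8.62 and 8.58 at 4 h, so most of its fall lay before 2 h. Its later difference of -0.57 ± 0.51 did not pass the test (adjusted p = 0.387; 0.0429 in a fit of the 6 arrays alone). Mafk, a small Maf factor, rose from 6.36, 6.39 and 6.47 to 7.07, 7.57 and 7.51, by 0.98 ± 0.14 (adjusted p = 1.15e-05). Its 2 h mean of 6.406 lay under the floor, so the size of this rise is set against background. Atf3, which restrains inflammatory genes, rose by 0.59 ± 0.19 (adjusted p = 0.0169), a call lost without any 1 of 3 arrays (up to 0.0899 without the control 2 h array of replicate 3). Myc was under the floor on all 6 arrays, so no change is given, and Ier3 (0.21 ± 0.23, adjusted p = 0.483) was not called.

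Other early genes with large falls were not grouped. Irs2, an adaptor of the insulin receptor, read 9.42, 10.50 and 10.22 at 2 h and 7.18, 7.53 and 7.13 at 4 h and fell by 2.77 ± 0.29 (adjusted p = 2.27e-07), to under its mean of 8.23 before LPS. Frmd6, a FERM domain protein of the Hippo pathway, went from 11.81, 12.14 and 11.93 to 8.26, 10.06 and 9.44 and fell by 2.71 ± 0.46 (adjusted p = 9.59e-05), with replicate 1 the lowest at 4 h. Cdk5r1, the activator of Cdk5, went from 9.62, 10.34 and 10.42 to 7.96, 7.68 and 8.25, a fall of 2.16 with an SE of 0.26 (adjusted p = 1.46e-06). None of the 3 genes overlapped between the times.

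Noct, the clock-linked enzyme nocturnin, read 10.88, 11.71 and 11.61 and then 9.14, 9.11 and 9.71, and fell by 2.08 ± 0.25 (adjusted p = 1.3e-06). Bcl2l11, the proapoptotic protein Bim, went from 10.78, 11.67 and 11.94 to 9.06, 9.64 and 9.64 and fell by 2.02 ± 0.32 (adjusted p = 4.53e-05). Adm, the peptide hormone adrenomedullin, fell by 1.18 ± 0.29 (adjusted p = 0.00287), and Ccrl2, an atypical chemoattractant receptor, fell by 0.92 ± 0.22 (adjusted p = 0.00233).

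Of 20 tested NF-kB genes 5 were called lower (25%, near the 24.3% of all genes) and 6 higher (30%, against 18.5%), with a median of 0.02, and with housekeeping centring 3 were lower and 7 higher. Nfkbia, the inhibitor IkB alpha, read 13.03, 13.35 and 13.30 at 2 h and 12.47, 12.75 and 12.46 at 4 h and fell by 0.67 ± 0.12 (1.59-fold, adjusted p = 0.000153). Nfkbid and Nfkbiz, nuclear IkB proteins, fell by 1.15 ± 0.24 (adjusted p = 0.000807) and 0.94 ± 0.23 (adjusted p = 0.00285). Tnfaip3, the ubiquitin-editing enzyme A20, read 12.17, 13.03 and 12.93 and then 11.89, 12.14 and 12.32; its fall of 0.60 with an SE of 0.21 (adjusted p = 0.0259) was not called without the block (0.123) or with housekeeping centring (0.112), and its groups overlapped. All 4 were still well above their levels before LPS at 4 h.

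In the same list Nfkb2, the p100 precursor of the noncanonical pathway, rose from 9.79, 9.29 and 9.76 to 10.31, 10.66 and 10.75, by 0.96 ± 0.17 (adjusted p = 0.000138). Ikbke, a kinase that phosphorylates Irf3 and Irf7, rose by 1.16 ± 0.11 (adjusted p = 1.08e-07). Of 11 tested MAP kinase phosphatase and Sprouty-related genes 4 were called lower (36.4%) and 1 higher (9.09%), with a median of -0.26. Over all genes these shares were 24.3% and 18.5%. Dusp1, which shuts off p38 and Jnk, averaged 14.56 at 1 h and read 11.84, 12.99 and 12.57 at 2 h and 11.50, 10.90 and 10.57 at 4 h, a fall of 1.48 with an SE of 0.39 (adjusted p = 0.00475). Dusp4 fell by 1.36 ± 0.29 (adjusted p = 0.000782), and neither Dusp1 nor Dusp4 was called without replicate 2 (0.116 and 0.0542) or replicate 3 (0.107 and 0.0779). Spred1, an inhibitor of Ras signalling, rose by 0.60 ± 0.19 (adjusted p = 0.0146), a call lost without the control 2 h array of replicate 2 (0.0861), among others.

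Among 19 tested regulators of mRNA decay 5 were called lower (26.3%) and 3 higher (15.8%), shares near the 24.3% and 18.5% of all genes (median 0.08). Zfp36l1, which binds AU-rich elements and recruits the deadenylase, had the largest called fall of all genes. It averaged 13.05 at 1 h, read 9.40, 12.28 and 11.44 at 2 h and 8.25, 8.18 and 7.98 at 4 h, and fell by 2.91 ± 0.43 (7.49-fold, adjusted p = 1.9e-05). Its replicate 1 array at 2 h lay much nearer to the 4 h group than the other two, and without it the fall was 3.53. Zfp36 (tristetraprolin), the related factor that destabilises Tnf mRNA, read 11.24, 12.08 and 11.83 at 2 h and 12.08, 11.87 and 12.20 at 4 h, a difference of 0.33 ± 0.24 that did not pass the test (adjusted p = 0.283). Btg1, an antiproliferative cofactor of deadenylation, fell by 1.18 ± 0.14 (adjusted p = 1.04e-06). The exonuclease Xrn1 rose by 0.96 ± 0.11 (adjusted p = 9.08e-07) and the decapping cofactor Dcp1a by 0.71 ± 0.11 (adjusted p = 2.87e-05).

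Of 23 tested early cytokines and chemokines 5 were called lower (21.7%), 3 higher (13%) and 15 neither (65.2%), against 24.3%, 18.5% and 57.2% of all genes, with a median of 0.09. Tnf, raised by 7.87 log2 units at 1 h, read 13.93, 14.28 and 14.34 at 2 h and 13.84, 13.86 and 13.80 at 4 h. The 4 h arrays lay under the 2 h arrays, but the difference of -0.35 ± 0.20 did not pass the test (adjusted p = 0.168); in a fit of the 6 arrays alone it did (0.0395). Cxcl1, a neutrophil chemokine, read 13.66, 14.68 and 14.79 and then 13.43, 13.80 and 13.91, and fell by 0.66 ± 0.23 (adjusted p = 0.0262), with overlapping groups and no call without the block (0.125). Cxcl2 read 10.76, 12.56 and 12.49 and then 11.57, 11.81 and 11.94 and was not called (-0.16 ± 0.32, adjusted p = 0.714). Without replicate 1, whose 2 h level was under the others, its difference was -0.65 (adjusted p = 0.0133).

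Il1b and Il1a, the interleukin 1 cytokines, stayed near the top of the scale. Il1b read 14.44, 14.51 and 14.64 at 2 h and 14.52, 14.58 and 14.89 at 4 h (0.14 ± 0.44, adjusted p = 0.827). Il1a read 14.07, 14.34 and 14.28 and then 14.24, 13.71 and 14.07 (-0.23 ± 0.34, adjusted p = 0.625). The monocyte and T cell chemokines Ccl2 (0.18 ± 0.54, adjusted p = 0.814) and Ccl4 (-0.02 ± 0.50, adjusted p = 0.982) were not called either. Ccl3 (0.68 ± 0.71, adjusted p = 0.464) and Ccl5 (0.49 ± 0.32, adjusted p = 0.228) lay higher on all 3 arrays of 4 h than on those of 2 h, did not pass in the fit over 24 arrays, and passed in a fit of the 6 arrays alone (0.00466 and 0.00539). Levels of Tnf, Il1a, Il1b, Ccl3, Ccl4 and Ccl5 exceeded 14, so their changes can be understated.

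Il10, the anti-inflammatory cytokine, was close to the floor, with 5.96, 6.77 and 6.82 at 2 h and 7.40, 6.10 and 6.36 at 4 h. Replicate 1 rose where replicates 2 and 3 fell, and the difference of 0.10 ± 0.26 (adjusted p = 0.774) became -0.57 without replicate 1 (adjusted p = 0.00112). Tnfsf15, a cytokine of the Tnf family, rose from 8.63, 8.63 and 8.54 to 9.04, 10.44 and 10.42, by 1.37 ± 0.26 (adjusted p = 0.000308). Hbegf, a growth factor for the Egf receptor, rose from 6.604, 6.92 and 6.66 to 8.33, 7.90 and 7.54, by 1.20 ± 0.27 (adjusted p = 0.0015). Neither Tnfsf15 nor Hbegf was called at 1 h against 0 h. Il12b and Acod1 were not analysed here.

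The 19 early genes called higher from 2 h to 4 h all had their highest control mean at 4 h. Cxcl10, a chemokine of the interferon response, rose by 5.49 log2 units at 1 h, read 14.30, 13.57 and 13.53 at 2 h and 15.00, 14.83 and 14.67 at 4 h, and rose again by 1.03 ± 0.22 (adjusted p = 0.000914). Il6, the acute-phase cytokine, went from 11.52, 12.22 and 12.16 to 12.91, 13.17 and 13.50 and rose by 1.22 ± 0.37 (adjusted p = 0.0113; 0.0706 without the control 2 h array of replicate 1). Cd40, the receptor for T cell help, went from 13.39, 12.58 and 13.02 to 14.83, 14.48 and 14.60 and rose by 1.64 ± 0.33 (adjusted p = 0.000466). The groups did not overlap in any of the 3.

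Tagap, a GTPase-activating protein, went from 10.30, 9.48 and 9.69 to 12.81, 11.98 and 12.31 and rose by 2.54 ± 0.16 (adjusted p = 4.79e-10). Calhm6, an ion channel family member, read 11.77, 10.92 and 10.71 and then 13.34, 13.30 and 13.31 and rose by 2.19 ± 0.22 (adjusted p = 1.19e-07). Fpr2, a formyl peptide receptor, rose by 2.004 ± 0.20 (adjusted p = 1.1e-07), Ptx3, a soluble pattern receptor, by 1.18 ± 0.21 (adjusted p = 0.000154), and Helz2, an interferon-induced helicase, by 1.15 ± 0.17 (adjusted p = 2.05e-05). These 5, with Cd69, Cd40 and Il6, were the 8 largest rises among early genes with a symbol. The ISRE was in 4 of the 15 promoter windows of early genes called higher (26.7%) and in 1.96% of the 51 windows of those called lower. The cyclic AMP response element, searched as TGACGTCA, was in 6 of the 51 windows of early genes called lower (11.8%). It was in 9.02% of windows of all early genes and in 3.1% of windows of tested genes.

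The large falls held early genes and others. Of the 158 genes that fell at least 2-fold, 32 were early genes, which made up 1.65% of all genes. At 1 h 40 of the 158 were called higher and 4 lower, where 6.32% of all genes were called either way. The other 114 were not called at 1 h, which does not show that they did not rise. The control mean was highest before LPS in 64 of the 158, at 1 h in 59 and at 2 h in 35. Kcnk13, a potassium channel, averaged 9.62 before LPS and read 8.38, 9.24 and 9.10 at 2 h and 6.21, 6.51 and 6.42 at 4 h, a fall of 2.53 with an SE of 0.17 (adjusted p = 1.02e-09). Snx24, a sorting nexin, went from 9.39, 10.27 and 10.48 to 7.72, 7.93 and 7.89, a fall of 2.20 with an SE of 0.17 (adjusted p = 6.7e-09). The means of both at 2 h lay under those before LPS, and their groups did not overlap.

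Sgms1, a sphingomyelin synthase, was called higher at 1 h (by 0.76, under the size set for early genes), then went from 9.95, 10.25 and 10.64 to 7.65, 8.301 and 8.34 and fell by 2.18 ± 0.19 (adjusted p = 1.99e-08). Dbp, a transcription factor of the circadian output, went from 8.25, 9.09 and 8.56 to 6.51, 6.74 and 6.28 and fell by 2.13 ± 0.14 (adjusted p = 8.38e-10). Dbp was under the floor on 1 and Kcnk13 on 2 of the 3 arrays at 4 h. The 4 h mean of Kcnk13 (6.38) lay under the floor, so the size of its fall is set against background. Over all 158, 9 genes lay under the floor on every 4 h array.

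Genes of survival and apoptosis moved both ways, with 10 of 26 tested members called higher (38.5%) and 8 lower (30.8%). Over all genes these shares were 18.5% and 24.3%, and the list median was 0.07. Gadd45g, a growth arrest and stress sensor, read 9.54, 9.21 and 9.06 at 2 h and 11.96, 11.80 and 11.67 at 4 h and rose by 2.54 ± 0.26 (adjusted p = 1.54e-07). It had averaged 11.43 before LPS, and the 4 h arrays returned to about that level. Bid, a proapoptotic substrate of caspase 8, rose from 8.19, 8.44 and 8.39 to 9.79, 9.85 and 9.85, by 1.49 ± 0.15 (adjusted p = 2.07e-07), also to near its mean of 9.41 before LPS. Sesn1, a p53 target that restrains mTORC1, fell by 1.89 ± 0.24 (adjusted p = 3.64e-06), beside the fall of Bcl2l11 given above.

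Metabolic and growth genes had list medians close to or under 0. Enzymes of arginine, nitric oxide, histamine and lipid mediators were called higher in 8 of 18 tested (44.4%, against 18.5% of all genes). They were called lower in 5 (27.8%, near the 24.3% of all genes), with a median of -0.02. Hdc, histidine decarboxylase, rose from 10.95, 10.61 and 10.47 to 11.87, 11.54 and 11.85, by 1.07 ± 0.12 (adjusted p = 3.61e-07). Ptgs2, cyclooxygenase 2, read 6.42, 7.30 and 8.11 and then 7.58, 8.04 and 8.96; it rose in each pair, by 0.92 ± 0.26 overall (adjusted p = 0.00758), with overlapping groups and no call without the block (0.0735). Arg1, arginase 1, read 13.10, 13.22 and 12.22 at 2 h and 12.30, 12.59 and 11.57 at 4 h and fell by 0.70 ± 0.08 (adjusted p = 7.44e-07); each pair fell but the groups overlapped, and the fit without the block did not call it (0.156). Odc1, which makes putrescine, fell by 0.40 ± 0.10 (adjusted p = 0.00219).

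**Figure D4:**
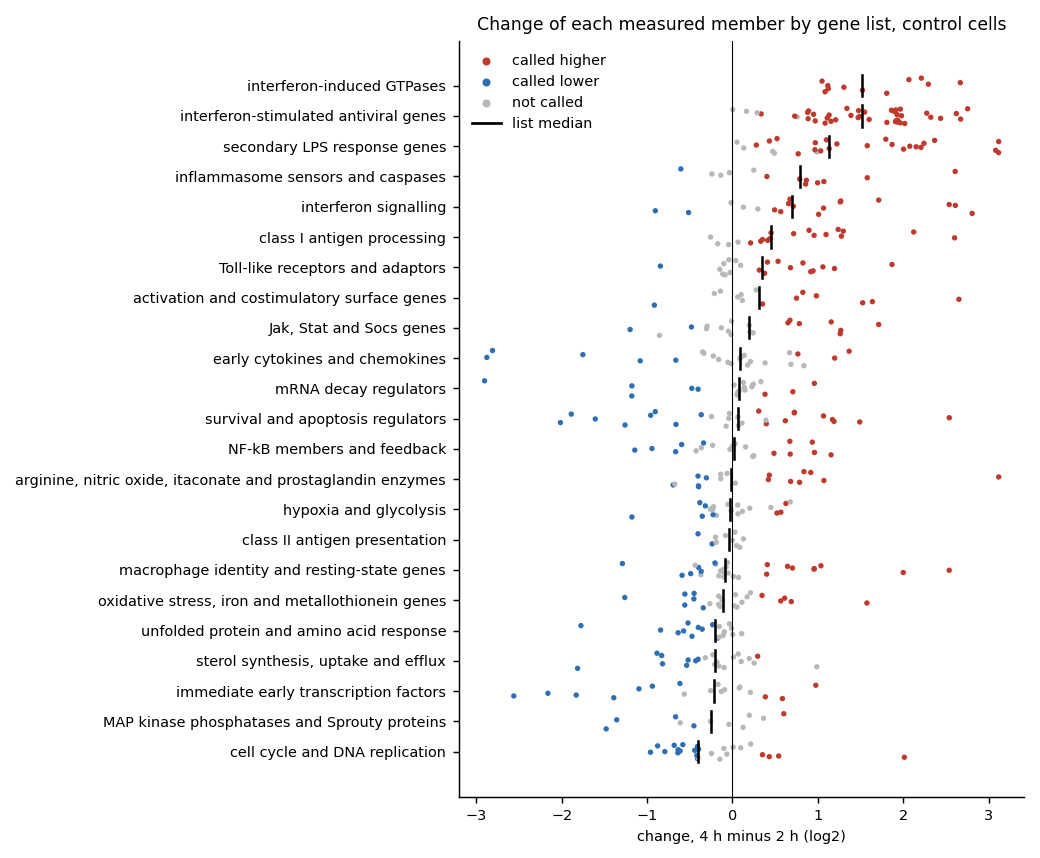
Change from 2 h to 4 h (log2) of each measured member of 23 gene lists in control cells, with red points called higher, blue called lower, grey not called, and a black bar at the list median. Lists are ordered by their median, from interferon-induced GTPases and antiviral genes at 1.52 to cell cycle genes at -0.40.

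Of 21 tested sterol genes 8 were called lower (38.1%) and 1 higher (4.76%), against 24.3% and 18.5% of all genes. The list median was -0.21, and with housekeeping centring 7 were lower and 4 higher. Abcg1, which exports cholesterol to lipoproteins, went from 9.03, 9.89 and 9.59 to 7.24, 8.05 and 7.77 and fell by 1.82 ± 0.12 (adjusted p = 5.77e-10). Stard4, a sterol carrier, fell by 0.89 ± 0.11 (adjusted p = 3.75e-06), and Scap, the escort of Srebp, rose by 0.30 ± 0.09 (adjusted p = 0.0103; 0.0508 without the control 2 h array of replicate 3). Of 20 tested hypoxia and glycolysis genes 5 were called lower (25%) and 3 higher (15%), near the shares of all genes (median -0.04), and with housekeeping centring 1 was lower and 5 higher. Hk2, hexokinase 2, rose by 0.57 ± 0.11 with overlapping groups (adjusted p = 0.000257; 0.101 without the block) and Slc2a6, a lysosomal hexose transporter, by 0.63 ± 0.18 (adjusted p = 0.00888; 0.231 without the block). Tpi1, triosephosphate isomerase, fell by 0.38 ± 0.10 (adjusted p = 0.00302), a call lost with housekeeping centring (0.0865).

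Of 23 tested genes of oxidative stress, iron and metallothioneins 5 were called higher (21.7%) and 6 lower (26.1%), near the shares of all genes (median -0.12). Keap1, the sensor that holds Nfe2l2 in check, rose from 9.53, 9.23 and 9.18 to 11.06, 10.73 and 10.87, by 1.58 ± 0.12 (adjusted p = 5.01e-09), and Mt2, a metallothionein, by 0.69 ± 0.18 (adjusted p = 0.00423; 0.0517 without the block). Slc40a1, the iron exporter ferroportin, fell from 9.78, 10.90 and 10.37 to 8.87, 9.28 and 9.11, by 1.26 ± 0.12 (adjusted p = 8.79e-08). Gclm, a subunit of glutathione synthesis, fell by 0.56 ± 0.15 (adjusted p = 0.0042; 0.293 without the block).

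Of 18 tested genes of the unfolded protein and amino acid response 10 were called lower (55.6%, against 24.3% of all genes). The other 8 were not called (median -0.20), and 5 were lower with housekeeping centring as well as without the block. Ppp1r15a, which restores translation by directing the phosphatase of eIF2 alpha, had peaked at 12.64 at 1 h and went from 10.91, 12.51 and 11.58 to 9.75, 10.09 and 9.83, a fall of 1.78 with an SE of 0.40 (adjusted p = 0.00143). Herpud1, a factor of endoplasmic reticulum degradation, fell by 0.84 ± 0.15 (adjusted p = 0.000182). Of 25 tested cell cycle and replication genes 13 were called lower (52%, against 24.3% of all genes) and 4 higher (16%, against 18.5%). The list median was -0.40, and 5 were called lower without the block. E2f1 and Rrm2, a factor and an enzyme of S phase, fell by 0.96 ± 0.09 (adjusted p = 1.04e-07) and 0.88 ± 0.11 (adjusted p = 1.57e-06).

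Ccnd2, a D-type cyclin, moved against that list, from 10.47, 10.05 and 10.48 to 11.83, 12.39 and 12.82, and rose by 2.01 ± 0.21 (4.04-fold, adjusted p = 2.37e-07). Ccne1, cyclin E1, rose by 0.54 ± 0.16 (adjusted p = 0.0109; 0.053 without the control 4 h array of replicate 1). Of 14 tested activation and costimulatory genes 7 were called higher (50%) and 1 lower (7.14%), against 18.5% and 24.3% of all genes. Cd69 and Cd40 led the list, whose median was 0.32. Brd2, a BET protein and target of the study's inhibitor class, read 12.25, 12.41 and 12.36 at 2 h and 12.57, 12.82 and 12.87 at 4 h; it was not called (0.41 ± 0.20, adjusted p = 0.108), although the groups did not overlap, and it was called with housekeeping centring (0.0253).

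Macrophage identity and resting-state genes were called higher in 9 of 28 tested (32.1%, against 18.5% of all genes). They were called lower in 6 (21.4%, near the 24.3% of all genes), and in 2 with housekeeping centring. The list median was -0.09. Fcgr1, the high-affinity receptor for IgG, read 8.32, 8.10 and 7.88 at 2 h and 10.42, 9.91 and 9.98 at 4 h and rose by 2.001 ± 0.14 (adjusted p = 1.78e-09). Mertk, a receptor for the uptake of apoptotic cells, rose from 10.78, 10.54 and 9.97 to 11.43, 11.59 and 11.14, by 0.96 ± 0.12 (adjusted p = 2.99e-06). Tfec, a macrophage-restricted factor of the Mitf family, fell by 1.29 ± 0.20 (adjusted p = 2.63e-05). Cd163, the haemoglobin scavenger receptor, was under the floor on all 3 arrays at 4 h and at least 1.21-fold lower than at 2 h (adjusted p = 3.48e-05). Of 9 tested housekeeping genes Tbp rose by 0.32 ± 0.08 (adjusted p = 0.00418; 0.109 without the block), and Gusb fell by 0.36 ± 0.08 (adjusted p = 0.00121), Hprt by 0.33 ± 0.09 (adjusted p = 0.00797; 0.0723 with housekeeping centring) and Rplp0 was also called lower (list median -0.275).

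The closest comparison in the study is the same interval in cells given the BET inhibitor, which displaces Brd2 and its relatives from acetylated histones. It uses 6 other arrays with the same replicate numbers. In treated cells 1722 genes were called higher (21%) and 1911 lower (23.3%) from 2 h to 4 h. Of the 301 control rises of at least 2-fold, 268 were also called higher in treated cells. Rises of at least 2-fold in both numbered 165, which is 54.8% of those in control and 71.7% of the 230 in treated cells. Falls of at least 2-fold in both numbered 97, which is 61.4% of those in control and 64.2% of the 151 in treated cells.

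The difference between both changes was tested directly. It was called in 459 genes (5.6%), with a higher change in treated cells in 200 (2.44%) and a lower one in 259 (3.16%). Among the 301 large control rises the difference was called in 84, of which 78 rose less in treated cells; among the 158 large falls it was called in 15, of which 12 fell less. These genes were chosen on the control arrays that enter the difference, so the sides are a description. Without the block the difference was called in 116 genes, without all arrays of replicate 3 in 33 and without those of replicate 2 in 51.

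**Figure D5:**
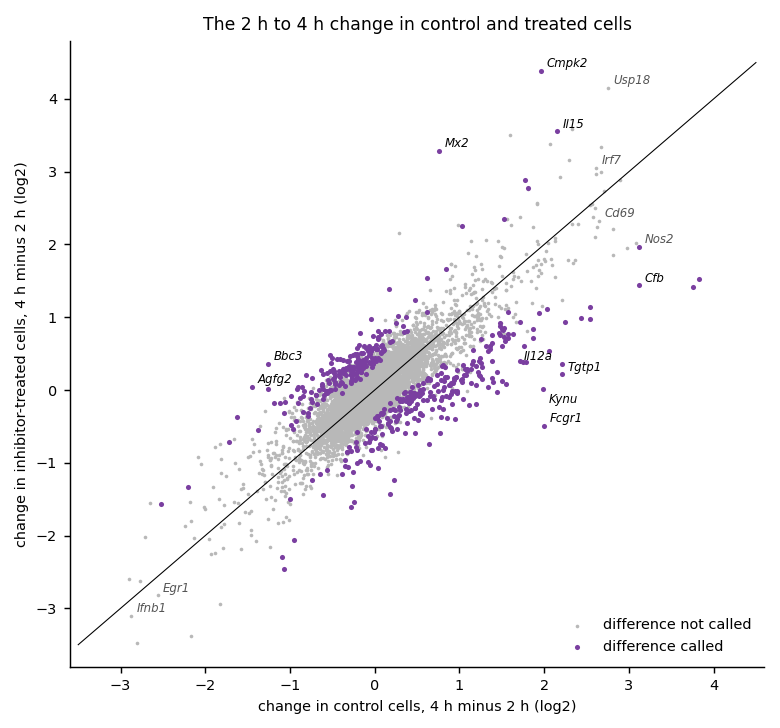
Change from 2 h to 4 h (log2) in inhibitor-treated cells against that in control cells, with 1 point per gene and a line at equal change. Purple points are the 459 genes whose difference was called; Fcgr1, Kynu, Tgtp1, Il12a and Cfb lie under the line and Mx2, Cmpk2, Il15, Bbc3 and Agfg2 above it.

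Several of the late effector genes rose in control cells and little or not in treated cells. Fcgr1 read 7.56, 8.09 and 7.94 in treated cells at 2 h and 7.69, 7.26 and 7.17 at 4 h, a fall there (change of -0.49, adjusted p = 0.00823), and the changes differed by -2.49 ± 0.20 (treated minus control, adjusted p = 6.48e-07). Kynu, kynureninase of tryptophan breakdown, rose in control cells from 8.91, 8.12 and 7.91 to 10.81, 10.02 and 10.07, by 1.99 ± 0.13 (adjusted p = 5.57e-10). In treated cells Kynu read 8.26, 7.93 and 7.92 and then 8.24, 8.18 and 7.74, and the changes differed by -1.97 ± 0.18 (adjusted p = 2.12e-06). Tgtp1 stayed under the floor on all 6 treated arrays, with values of 5.97, 5.85 and 5.86 and 6.42, 5.97 and 5.94, so no treated change is given; the difference from control passed the test (adjusted p = 2.12e-06).

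Il12a was under the floor on all 3 treated arrays of 2 h and on 2 of those of 4 h, with 6.00, 6.02 and 5.94 and then 6.22, 6.17 and 6.66, and its changes differed by -1.85 ± 0.23 (adjusted p = 6.3e-05). Cfb rose in treated cells from 6.79, 6.49 and 6.38 to 8.43, 7.69 and 7.86, less than in control cells, and the changes differed by -1.68 ± 0.26 (adjusted p = 0.000483). The 4 h control levels of these 5 genes were all above the 4 h treated levels.

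In the other direction the treated change was larger for some interferon genes, whose 2 h levels were lower in treated than in control cells on every replicate number. Mx2 read 10.998, 8.11 and 7.69 in treated cells at 2 h and 12.09, 12.30 and 12.28 at 4 h, and its changes differed by 2.53 ± 0.72 (adjusted p = 0.0426; 0.203 without the block). Cmpk2 went from 11.55, 8.62 and 8.38 to 14.21, 13.80 and 13.69, with a difference of 2.42 ± 0.59 (adjusted p = 0.0189; 0.195 without the block). Il15 went from 10.11, 9.47 and 9.24 to 13.15, 13.17 and 13.17, with a difference of 1.41 ± 0.41 (adjusted p = 0.0469; 0.107 without the block). At 4 h the treated and control arrays of Mx2 and Il15 covered similar ranges.

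Bbc3, the proapoptotic protein Puma, fell in control cells from 9.65, 9.74 and 9.71 to 8.35, 8.41 and 8.56, by 1.26 ± 0.28 (adjusted p = 0.00111). In treated cells it read 8.65, 8.49 and 8.65 and then 8.69, 9.30 and 8.87, and the changes differed by 1.62 ± 0.39 (adjusted p = 0.0181; 0.0681 without the block). Agfg2 fell in control cells from 9.12, 9.80 and 9.34 to 7.82, 8.09 and 8.01, by 1.45 ± 0.11 (adjusted p = 3.78e-09), and stayed at 9.64, 9.76 and 9.64 and 9.71, 9.66 and 9.79 in treated cells, a difference of 1.49 ± 0.15 (adjusted p = 1.03e-05). For the falling genes Ifnb1, Egr1, Tnfsf9 and Zfp36l1 the treated change was -3.11, -2.82, -3.48 and -2.60, and the difference from control was not called, with adjusted p of 0.927, 0.834, 0.559 and 0.843.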

How the data were processed

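Transcripts were measured on 1-colour Illumina bead arrays, 1 per sample, and groups came from the sample titles. The log2 intensities used, for 25697 probes, were normalized by the authors before they were deposited; per the submitters' processing notes limma was used, with no version. The log2 scale and quantile normalization were inferred from the values, which ran from 5.354 to 15.172 and, once ranked, agreed between arrays to 0.004 at 99% of ranks. Any background subtraction is unknown. The 72 value columns of a non-normalized table were left out, since they are named by array position and cannot be matched to samples.

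Symbols came from the platform annotation (23978 probes with 1 symbol, 0 with several, 1719 with none), checked against RefSeq on GRCm38.p6 (16 identifiers unmatched, 0 symbols changed). The floor of 6.455 is the 99th percentile of 1305 olfactory and vomeronasal receptor probes. Probes above it on all 3 arrays of at least 1 group were kept (10887), and the brightest kept probe stood for its gene, giving 8201 features, 618 without a symbol. Kept probes of 2 genes, Ppp2r5e and Smad5, were called in opposite directions.

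The fit (limma 3.58.1, R 4.3.3, lmFit and eBayes, two-sided) held 8 group means and the replicate number as a block, with 14 residual degrees of freedom and a median residual SD of 0.128. Pairing by number was looked at in deviations from the group means. Same-numbered arrays at 2 h and 4 h correlated at 0.606, 0.413 and 0.48, and other-numbered arrays from -0.496 to 0.227. Over all groups the 84 same-numbered pairs ran from 0.106 to 0.847 (median 0.469). The 168 other-numbered pairs ran from -0.727 to 0.358 (median -0.347). Deviations cancel within a group, so positive values for the same number force lower ones for other numbers. Replicates 2 and 3 also correlated across numbers (0.227 and 0.195), so their pairing is less clear. Replicate correlations were 0.977 to 0.9946 at 2 h and 0.9839 to 0.993 at 4 h. Precision is limited by the number of arrays, and the median SE was 0.104.

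The script was tested on simulated data. Genes named in the text, all with a symbol, are the 12 largest called rises and falls, the 8 largest each way among early genes, the 2 largest each way in each list, the 5 largest each way for the difference, and a fixed panel of 34 genes of which 30 were tested. The members and lists were chosen with earlier results of these data known. Alternatives concerned the block, the arrays fitted, the filter, probes per gene, scaling, background, eBayes settings and arrays left out.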

Additional observations from a re-analysis of the deposited data

Results flagged for a closer look

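In 24 of the genes named above the change from 2 h to 4 h differed between inhibitor-treated and control cells by the test of the difference itself (limma, 3 arrays in each of 4 groups, adjusted over 8201 genes). Differences are treated minus control on the log2 scale. Fcgr1, Tgtp1, Kynu, Il12a, Cfb, Mx2, Cmpk2, Bbc3, Agfg2 and Il15 were named because their differences were the 5 largest each way, so the count of 24 is not to be read against the 5.6% of all genes that passed. Tgtp1 was under the floor on all 6 treated arrays, so its size is set against background.

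Among interferon and effector genes that rose in control cells, the treated change was lower for Fcgr1 (-2.49), Tgtp1 (-1.995), Kynu (-1.97), Il12a (-1.85), Cfb (-1.68), Irf8 (-1.56), Tagap (-1.40), Hbegf (-1.39), Nos2 (-1.15), Tlr3 (-1.03), Mertk (-0.78), Hdc (-0.78) and Il18 (-0.50). Pycard fell in both and fell further in treated cells (-0.84). In treated cells Nos2 went from 5.99, 6.08 and 6.26 to 8.58, 7.68 and 7.99 and Irf8 from 8.29, 8.68 and 8.12 to 9.32, 9.64 and 9.05, so both rose there too.

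The treated change was higher for Mx2 (2.53), Cmpk2 (2.42), Il15 (1.41) and Cxcl10 (1.23), which were higher at 4 h than at 2 h in both, and for Bbc3 (1.62), Agfg2 (1.49), Kcnk13 (0.97), Snx24 (0.87), Stard4 (0.78) and Herpud1 (0.76), which fell in control cells. Cxcl10 in treated cells went from 12.58, 11.91 and 11.83 to 14.46, 14.37 and 14.28. Without the replicate block the difference was still called for Fcgr1, Tgtp1, Kynu, Il12a, Cfb, Agfg2, Tagap, Tlr3 and Nos2 and lost for the other 15.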

How the results depend on the processing

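Of the 111 named genes that were called from 2 h to 4 h, 85 kept their call and direction under each of the 19 alternatives that gave them a value, and of the 17 not called 7 stayed so; keeping only probes above the floor on all 24 arrays left 78 of the 111. The 1514 genes called higher became 986 to 1441 when single arrays or whole replicates were left out, the 1994 called lower 1182 to 1873, the 301 rises of at least 2-fold 273 to 358 and the 158 falls of at least 2-fold 138 to 204. Housekeeping centring gave 2171 genes higher and 1015 lower. Without the replicate block, which leaves the pairing of arrays out, 1095 genes were called higher and 1221 lower, and of the named genes 11 lost their call. Early genes called lower numbered 44, and 29 when only probes above the floor on all 24 arrays were kept, 24 with a first-hour rise of at least 2 log2 units, and 20 to 51 with arrays left out and the early genes chosen anew (28 to 57 on the same 135 genes). Early genes called higher numbered 19, and 12 without the block, 8 with the stricter rise, and 7 to 23 with arrays left out and the early genes chosen anew (11 to 26 on the same 135). The difference between treated and control changes was called in 459 genes, in 116 without the block, and in 33 to 665 with arrays left out. It could not be fitted on control arrays alone. The change of Il10 ran from -0.57 without replicate 1, a reversal, to 0.49 without replicate 2. Among the lists, hypoxia and glycolysis had 1 gene higher and 2 lower without the block, and oxidative stress 2 and 4. Where a count moved, the cause was not tested, beyond the fewer genes or samples that the filter, the stricter rise and the left-out arrays bring. Array levels near the floor and above 14 limit what folds can show.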
